A study of Homo sapiens with 24 samples.

Results

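A set of 37 genes of the ATF4 stress response, of serine and one-carbon synthesis and of the unfolded protein response was followed in H2052, a cell line established from a human pleural mesothelioma. The members were listed by symbol and matched through their Ensembl identifiers in the count file of every one of 24 libraries. All 37 were found among 57500 gene identifiers, and all 37 passed the filter on low counts in every fit. The ATF4 arm held 21 of them, namely 9 regulators and stress effectors, 6 biosynthetic enzymes and 6 transporters and receptors. The arm of the endoplasmic reticulum (ER) held 16, namely 4 stress sensors, 9 chaperones and folding enzymes and 3 genes of ER-associated degradation (ERAD).

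The cells had received 20 nM of a mimic with biotin at its 3′ end by lipid transfection, either miR-497-5p (written miR-497-5p-RE in the labels, a suffix they do not explain) or a scrambled control. They were collected at 12 h and at 72 h. At each time polyadenylated RNA was sequenced from the cells (RNA-seq) and from what streptavidin beads kept out of a cytoplasmic extract (pull-down), with 3 libraries in each of 8 groups. All groups share 1 cell line and the transfection, no group was left without a mimic, and in bulk RNA fewer cells of a type and less RNA per cell cannot be told apart.

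ATF4 is a transcription factor whose protein is made when phosphorylation of the initiation factor eIF2 slows general translation, as happens when amino acids run short or when proteins misfold in the ER. It raises genes that take up or make amino acids, serine among them, and a feedback that ends the response. The unfolded protein response has 3 ER membrane sensors, PERK (EIF2AK3), IRE1 (ERN1) and ATF6, and raises chaperones and the machinery that returns misfolded proteins to the cytosol for degradation. Much of this control acts on translation, splicing or cleavage of proteins, which gene counts do not measure.

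The mimic's sequence is shown with the sites it could pair with in members that moved, since a microRNA recognises transcripts mainly through its seed, bases 2 to 8 of its 5′ end. MiR-497-5p lies at chr17:7017979-7017999 on the minus strand (RefSeq, GRCh38.p14), and 7 mature human miRNAs in the RefSeq table carry its seed, among them miR-15a-5p, miR-16-5p, miR-195-5p and miR-497-5p itself. Capitals mark the seed in the first line. In the other lines, written 5′ to 3′ from the transcript strand of GRCh38 with GENCODE 44, they mark the matching site in the 3′ UTR.
hsa-miR-497-5p: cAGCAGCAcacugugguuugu
CHAC1 8mer: ttccccccagtgcTGCTGCTA
CHAC1 7mer-m8: agattccccccagTGCTGCTg
PSAT1 8mer: cgtattttgccttTGCTGCTA
ATF6 8mer: aaattaggattgtTGCTGCTA
SLC7A5 7mer-m8: tcatgctcagcctTGCTGCTc
PDIA6 7mer-m8: ttttctctctgacTGCTGCTt
SEL1L 7mer-m8: ataaataatttgtTGCTGCTc
CEBPG 7mer-m8: gagcagctcttccTGCTGCTg

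A 7mer-m8 site is TGCTGCT, an 8mer site TGCTGCTA, and a 6mer site GCTGCT. The CHAC1 8mer lies at chr15:40956081-40956088 and overlaps the 7mer-m8 at chr15:40956078-40956084. The PSAT1 8mer lies at chr9:78329350-78329357, the SLC7A5 site at chr16:87830255-87830261, the PDIA6 site at chr2:10783971-10783977 and the SEL1L site at chr14:81471550-81471556. In the longest annotated 3′ UTR a 7mer-m8 or 8mer was found in 11 of 37 members (29.7%), beside 26.2% of 13947 tested protein-coding genes. The 11 were CEBPG, PPP1R15A and CHAC1 among the regulators, PSAT1, then SLC7A5, SLC7A1 and VLDLR among the transporters, and ATF6, ERN1, PDIA6 and SEL1L in the ER arm. For PPP1R15A the site is in the longest annotated 3′ UTR (943 bases), while the 3′ UTR of its canonical transcript (85 bases) held none. The members' 3′ UTRs were shorter, with a median of 943 bases against 1509 bases over the tested genes. In coding sequence 17 members (45.9%) held such a match, beside 35.6% of tested genes. PPP1R15A is counted in both the 11 and the 17 through the same bases, which are coding in another of its transcripts.

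Of the 35 members with a promoter window, 11 held at least 1 of 4 motifs known from the responses. Each gene had 1 promoter window, around a start in RefSeq (GRCh38.p14), and other starts of a gene were not searched. CARE, the composite element that ATF4 dimers bind, was searched as TGATGNAA on both strands. It was found in 5 of the 35 members with a window (ASNS, CHAC1, HERPUD1, SLC3A2 and SLC7A1) and in 3.67% of 27305 promoters. The SLC3A2 match at chr11:62881736-62881743 lies inside the gene, which starts at chr11:62856004 in GENCODE. The ER stress element ERSE, searched as CCAAT and CCACG with 9 bases between them on both strands, was found in CALR, CRELD2, HSP90B1, HSPA5 and XBP1, all of the ER arm, and in 0.08% of promoters. ERSE-II, searched as ATTGG, any base and CCACG on both strands, was found in HERPUD1 and SDF2L1 and in 0.05% of promoters. UPRE, searched as TGACGTGG on both strands, was in no member's window and in 0.79% of promoters. The windows of 5 genes are shown because their values are described below, with the matched letters in capitals, on the gene's strand.
HSPA5 ERSE: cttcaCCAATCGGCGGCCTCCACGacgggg
XBP1 ERSE: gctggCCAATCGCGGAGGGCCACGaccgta
CRELD2 ERSE: cctctCGTGGCGAACTCGGATTGGgccata
ASNS CARE: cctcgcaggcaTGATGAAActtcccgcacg
CHAC1 CARE: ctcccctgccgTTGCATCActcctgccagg

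In CRELD2 and CHAC1 the match reads as the reverse complement of the motif. The windows lie at chr9:125241385-125241414 (HSPA5, minus strand), chr22:28800597-28800626 (XBP1, minus strand), chr22:49918549-49918578 (CRELD2, plus strand), chr7:97872458-97872487 (ASNS, minus strand) and chr15:40953251-40953280 (CHAC1, plus strand). A match of letters is a description of the window and was not tested for binding.

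RNA-seq libraries held 21561816 to 30602007 counts and pull-down libraries 8262425 to 30650982, the lowest being miR-497-5p replicate 2 at 72 h. The biological coefficient of variation was 0.0601 in RNA-seq and 0.349 in the pull-down, so smaller differences could be called in RNA-seq. Fits of both assays together shared their estimate of spread, with a coefficient of 0.2 at 12 h and 0.175 at 72 h. Standard errors and adjusted p of differences between assays may therefore understate the spread of the pull-down. Marker and HBB levels are counts scaled to library totals (CPM), while the CPM of the members are scaled with TMM factors as well. Of 10 mesothelial markers, keratins, VIM, MSLN and WT1 were present, while CALB2 (median 1.44 CPM in RNA-seq) and UPK3B (0.236 CPM) were near 0. At 12 h the summed level of 26 squamous markers varied within every group, from 302 to 778 CPM in control and 131 to 1004 CPM in miR-497-5p RNA-seq libraries, and from 154 to 757 and 214 to 872 CPM in the pull-down. HBB, a haemoglobin gene, stood at 462 to 568 CPM in 3 of the 6 RNA-seq libraries at 12 h (control replicates 1 and 2, miR-497-5p replicate 2). The part of these transcripts in the results was not tested, and the counts of calls that use RNA-seq at 12 h are also given without those 3 libraries, an alternative chosen after seeing the data. Since no label ties the 3 replicates of a group to separate cultures, the p-values cover the spread between the sampled libraries alone, and that spread may be technical.

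Levels between genes are compared as CPM per kilobase of exon. In control RNA-seq at 12 h the highest member was CALR at 398.7 ± 4.2 CPM per kilobase (SD, n = 3), followed by ATF4 at 154.1 ± 4.3 and HSPA5 at 128.6 ± 3.3. PDIA6 (115.8 ± 3.6) and SLC7A5 (112.6 ± 3.7) followed, and differed from each other by less than their SD. The lowest were SLC6A9 at 1.14 ± 0.051, ERN1 at 0.699 ± 0.072 and VLDLR at 0.618 ± 0.035. With the longest annotated transcript as the length, CALR and ATF4 kept ranks 1 and 2, and HSPA5 moved to rank 5.

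**Figure D1:**
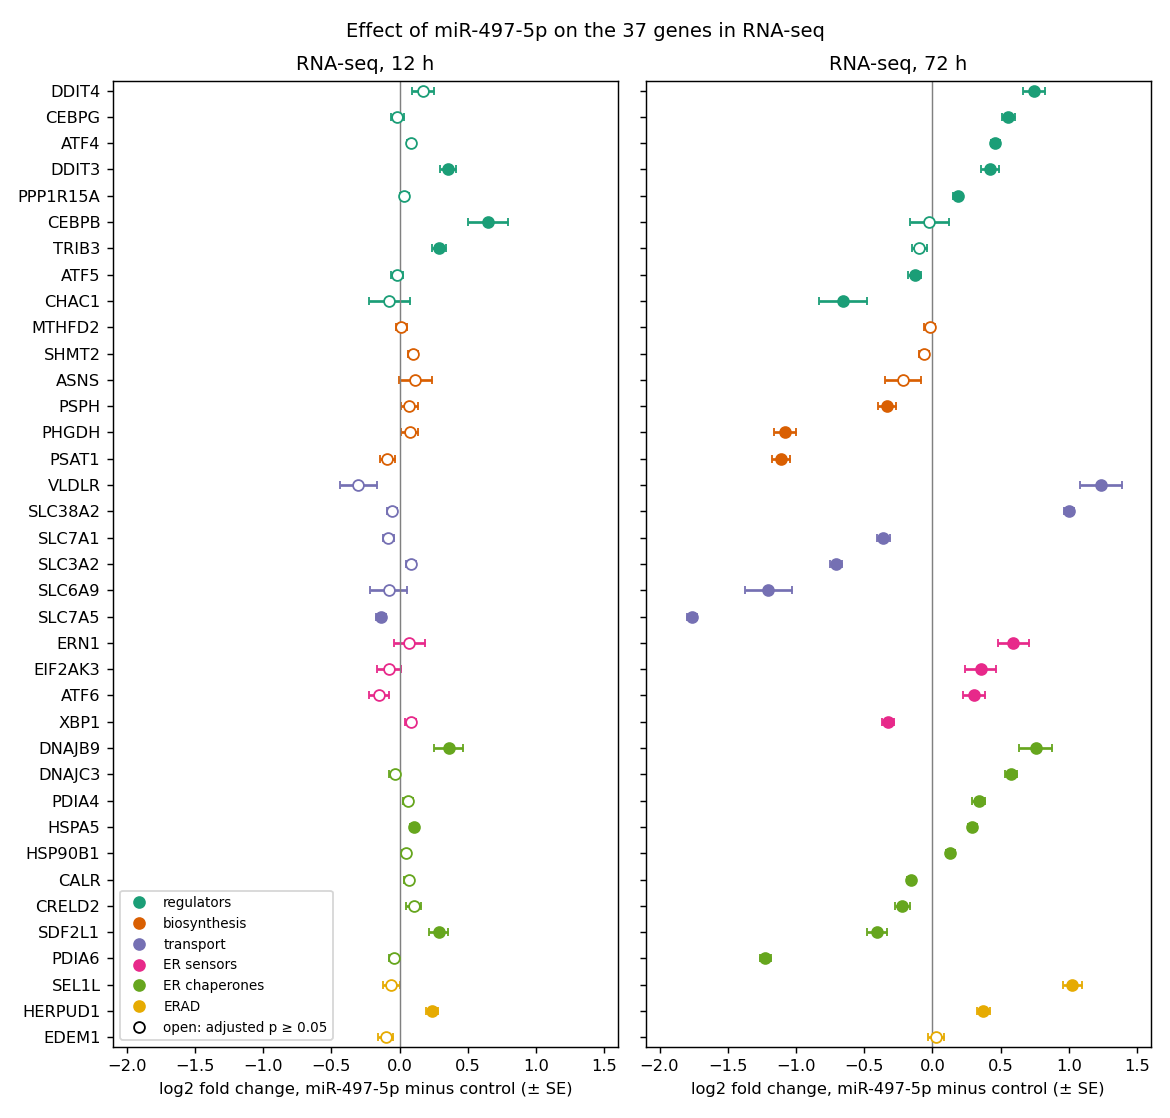
Log2 fold change of each of the 37 genes, miR-497-5p minus control, in RNA-seq at 12 h (left) and 72 h (right), with the standard error from the edgeR fit and 3 libraries in each group. Filled points passed an adjusted p of 0.05; values at 12 h lie between -0.30 and 0.65, those at 72 h between -1.76 and 1.23.

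At 12 h, miR-497-5p raised a few stress genes by small amounts in RNA-seq. Of the 37 members 7 rose and 1 fell (21.6% called), beside 12.5% of all 17335 genes tested (7.25% higher and 5.3% lower), and the members' median log2 fold change was 0.06 beside 0.01 for all genes. The risen members were DDIT3, CEBPB and TRIB3 in the ATF4 arm and DNAJB9, SDF2L1, HSPA5 and HERPUD1 in the ER arm, and the fallen one was SLC7A5. The 3 libraries of each treatment did not overlap for 14 members that were higher and 2 that were lower, beside 13.8% and 11.9% of all genes. With scaling by library totals the calls were 6 and 3 among members, and among all genes 722 higher and 1746 lower in place of 1256 and 919. With an offset for exonic length 5 members rose and 1 fell, and HSPA5 and DNAJB9 were not called. The members' median was then 0.017 beside 0.006 for all genes, of which 872 were higher and 638 lower. In these fits a gene is called at an adjusted p under 0.05 in edgeR's quasi-likelihood test, and values with ± are log2 fold changes with their standard error from 3 libraries in each group. Without the 3 libraries rich in HBB, which leaves 1 control library whose spread is taken to be that of the other groups, 4 rose and 1 fell. CEBPB (0.80, adjusted p 0.141), HSPA5 (0.07, adjusted p 0.424) and DNAJB9 (0.40, adjusted p 0.123) were then not called, though the log2 fold changes of CEBPB and DNAJB9 were no smaller than with all libraries.

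DDIT3 (CHOP), the transcription factor that turns lasting ER stress towards cell death, stood at 32.2, 34.5 and 36.0 CPM in the control libraries and 43.0, 43.5 and 45.3 CPM with miR-497-5p. Every treated library was above every control library (log2 fold change 0.36 ± 0.06, adjusted p 2.18e-05). In the annotation used for counting, 28% of its exonic bases overlap MARS1 on the other strand, and the sources do not give whether counting used the strand. TRIB3, a pseudokinase that dampens ATF4 and AKT, stood at 47.9, 47.0 and 48.8 CPM in the control libraries and 61.9, 55.1 and 58.8 CPM with miR-497-5p, again without overlap (0.29 ± 0.05, adjusted p 7.06e-05). CEBPB, a leucine zipper partner of ATF4, stood at 68.9, 54.7 and 55.9 CPM in the control libraries and 116, 86.6 and 79.4 CPM with miR-497-5p (0.65 ± 0.15, adjusted p 0.0243). Its groups did not overlap, but the adjusted p was 0.0917 without control replicate 2 and 0.0867 without control replicate 3. ATF4 itself stood at 375, 395 and 393 CPM in the control libraries and 417, 398 and 416 CPM with miR-497-5p, without overlap, and was not called (0.08 ± 0.03, adjusted p 0.0623). It was called higher in DESeq2 (adjusted p 0.0283) and without miR-497-5p replicate 2 (0.0181).

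In the ER arm HERPUD1, an ERAD component at the ER membrane, stood at 114, 119 and 115 CPM in the control libraries and 133, 134 and 143 CPM with miR-497-5p (0.24 ± 0.04, adjusted p 7.19e-05). SDF2L1, a cofactor of the chaperone HSPA5, stood at 67.2, 67.3 and 64.4 CPM in the control libraries and 90.4, 75.0 and 77.8 CPM with miR-497-5p (0.29 ± 0.07, adjusted p 0.0096). Neither gene's groups overlapped. DNAJB9 (ERdj4), a co-chaperone that reports IRE1 activity, stood at 8.23, 7.87 and 8.32 CPM in the control libraries and 10.5, 9.38 and 11.5 CPM with miR-497-5p (0.36 ± 0.11, adjusted p 0.0173). HSPA5 (BiP), the main ER chaperone that holds the sensors inactive, stood at 488, 507 and 513 CPM in the control libraries and 535, 543 and 544 CPM with miR-497-5p, a small difference (0.10 ± 0.03, adjusted p 0.0179). The groups of both genes were apart, yet their calls were lost without single libraries. For DNAJB9 the adjusted p was 0.0725 without control replicate 2 and 0.134 without miR-497-5p replicate 3, and for HSPA5 it was 0.113 without control replicate 1, 0.0599 without miR-497-5p replicate 3 and 0.23 when scaled by library totals. No gene of the ER arm fell by this test, with 1 lower at an unadjusted p under 0.05 and 0 lower in DESeq2, while PDIA6 was called lower with library totals (-0.09, adjusted p 0.0483). Of the 4 sensors 0 were called, with 1 at an unadjusted p under 0.05 and 0 in DESeq2. Of the 6 biosynthetic genes 0 were called, with 1 at an unadjusted p under 0.05 and 1 in DESeq2.

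SLC7A5 (LAT1), the large neutral amino acid transporter and an ATF4 target, was the member that had already fallen at 12 h. It stood at 516, 537 and 550.3 CPM in the control libraries and 519, 463 and 478 CPM with miR-497-5p, with 1 treated library inside the control range (-0.14 ± 0.03, adjusted p 0.00523). The adjusted p was 0.0557 without control replicate 3 and 0.0511 without miR-497-5p replicate 2.

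By 72 h most members had changed, in both directions. In RNA-seq 17 of 37 rose and 14 fell (83.8% called), beside 57.5% of all genes tested, of which 27.9% rose and 29.6% fell. The members' share also exceeded that of all genes in control cells between the 2 times (89.2% beside 74.4%). The part of expression level in these shares was not tested. The ATF4 arm was split, with 7 of 21 higher and 9 lower and a median log2 fold change of -0.10. In the ER arm 10 of 16 were higher and 5 lower, with a median of 0.30 beside 0.00 for all genes. Of the 9 regulators 5 rose and 2 fell, of the 6 enzymes 3 fell and 3 were not called, and of the 6 transporters and receptors 2 rose and 4 fell; a difference between these roles was not tested. The share of mitochondrial counts was 5.75 to 6.01% in the control and 8.51 to 8.85% in the miR-497-5p RNA-seq libraries at 72 h. The summed level of the 10 mesothelial markers was 4135 to 4178 CPM and 6056 to 6099 CPM in these groups. VIM varied most among them, from 1210 to 3480 CPM over all RNA-seq libraries (median 1500 CPM), so the sum need not describe the other markers. The part of these shifts in the results was not tested. Groups did not overlap for 17 members that were higher and 16 that were lower, beside 31.6% and 32.2% of all genes. With library totals 15 members rose and 18 fell, and all genes split into 3808 higher and 6137 lower in place of 4835 and 5128.

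ATF4 (chr22:39519695-39522685, plus strand, GRCh38), the central transcription factor of the arm, stood at 763, 756 and 762 CPM in the control libraries and 1059, 1056 and 1030.0 CPM with miR-497-5p. All treated libraries lay above all control libraries (0.46 ± 0.03, adjusted p 3.63e-18). CEBPG, a dimer partner of ATF4 that carries a 7mer-m8 site, stood at 65.5, 65.9 and 66.3 CPM in the control libraries and 99.2, 95.9 and 95.8 CPM with miR-497-5p (0.56 ± 0.05, adjusted p 4.63e-14). DDIT3 stood at 26.6, 25.3 and 23.5 CPM in the control libraries and 32.4, 34.6 and 34.0 CPM with miR-497-5p, a rise of similar size to that at 12 h (0.42 ± 0.06, adjusted p 1.75e-07). DDIT4 (REDD1), an inhibitor of mTORC1, stood at 16.2, 14.4 and 15.5 CPM in the control libraries and 25.8, 26.9 and 24.6 CPM with miR-497-5p (0.74 ± 0.08, adjusted p 2.09e-11), and 41.2% of its exonic bases overlap an annotated gene on the other strand. None of these 3 genes had overlapping groups. PPP1R15A (GADD34), which directs the phosphatase that reverses eIF2 phosphorylation, rose by 0.19 ± 0.03 (adjusted p 2.12e-06). TRIB3, which had risen at 12 h, stood at 38.3, 38.8 and 38.5 CPM in the control libraries and 37.4, 35.4 and 35.4 CPM with miR-497-5p (-0.10 ± 0.06, adjusted p 0.148) and was called lower with library totals (-0.20, adjusted p 0.00151). CEBPB was not called (-0.02 ± 0.14, adjusted p 0.919). ATF5 fell by 0.13 ± 0.05 (adjusted p 0.0138), a call lost without miR-497-5p replicate 2 (0.0634) or 3 (0.0807) and with an offset for exonic length (0.618). CHAC1, an enzyme that degrades glutathione and a late ATF4 and CHOP target, stood at 3.19, 4.3 and 4.41 CPM in the control libraries and 2.45, 2.49 and 2.61 CPM with miR-497-5p and fell (-0.66 ± 0.18, adjusted p 0.00123), with no overlap.

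**Figure D2:**
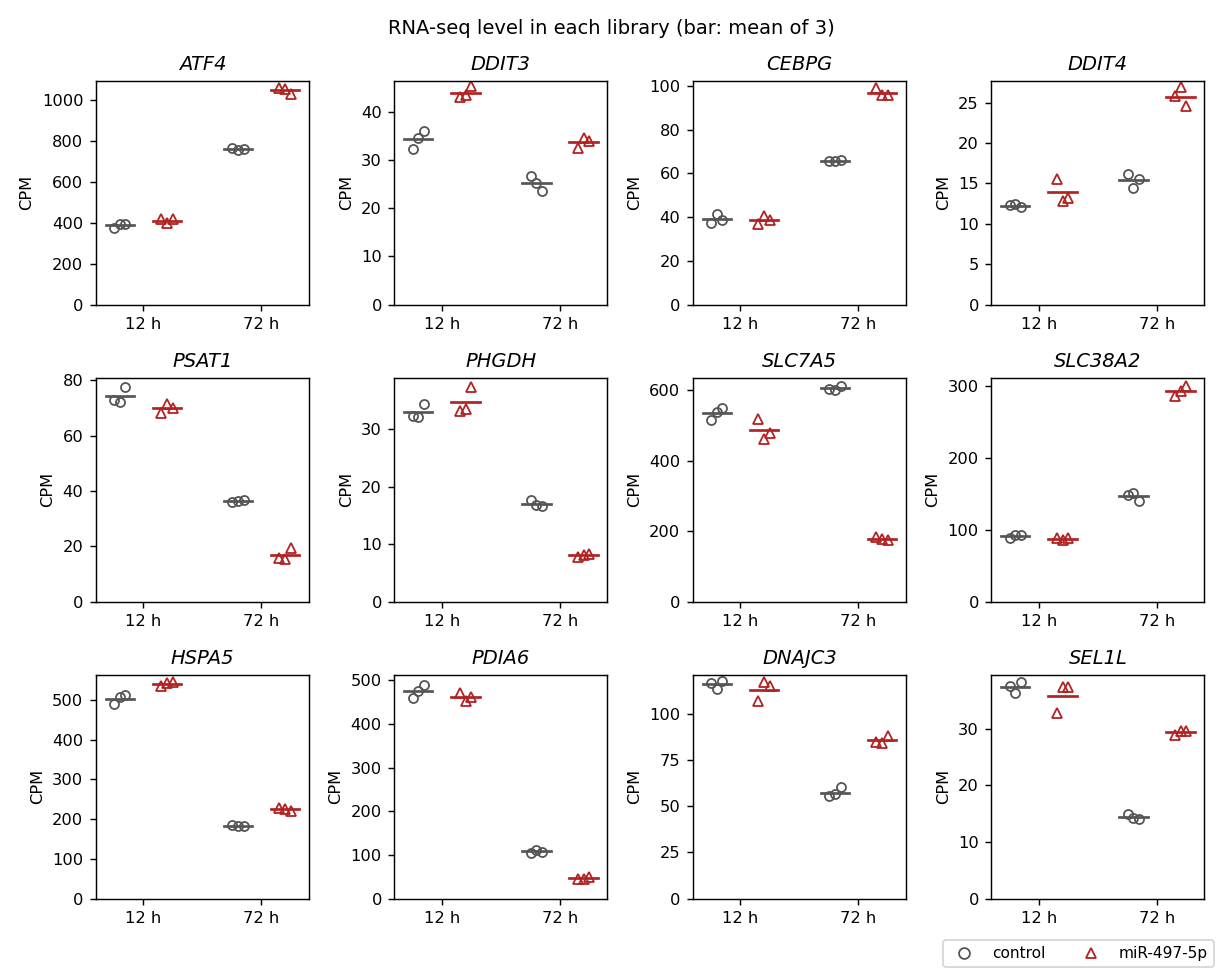
RNA-seq level in CPM (linear axes from 0) of 12 members in each library, with control as circles, miR-497-5p as triangles and the mean of 3 as a bar, at 12 h and 72 h. The 2 treatments are apart at 72 h in each panel, with ATF4, SLC38A2 and SEL1L higher and PSAT1, PHGDH, SLC7A5 and PDIA6 lower with miR-497-5p.

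Of the 6 biosynthetic enzymes 3 fell, and these were the 3 that make serine from a glycolytic intermediate. PHGDH, the first and committing enzyme, stood at 17.7, 16.8 and 16.6 CPM in the control libraries and 7.77, 8.04 and 8.3 CPM with miR-497-5p (-1.08 ± 0.08, adjusted p 5.92e-16). PSAT1, the aminotransferase of the second step, stood at 36.2, 36.2 and 36.8 CPM in the control libraries and 15.8, 15.3 and 19.4 CPM with miR-497-5p (-1.11 ± 0.07, adjusted p 1.68e-19). PSPH, the phosphatase of the last step, stood at 27.1, 28.6 and 26.3 CPM in the control libraries and 22.0, 21.7 and 21.5 CPM with miR-497-5p (-0.33 ± 0.07, adjusted p 2.56e-05). In all 3 genes every treated library was below every control library. GENCODE names 4 pseudogenes after PSAT1 and 1 after PSPH, and counts of near-identical copies are uncertain. The same limit holds for ATF4 and ASNS (4 each), SLC7A5 (2), and XBP1 and HSPA5 (1 each). The mitochondrial enzymes that use serine to make one-carbon units were not called, with SHMT2 at -0.06 ± 0.04, adjusted p 0.179 and MTHFD2 at -0.02 ± 0.04, adjusted p 0.718. ASNS, asparagine synthetase and a classical ATF4 target with CARE letters in its promoter, stood at 7.86, 6.95 and 7.49 CPM in the control libraries and 8.08, 5.29 and 5.84 CPM with miR-497-5p and was not called (-0.21 ± 0.13, adjusted p 0.164). With scaling by library totals these 3 genes passed as lower (adjusted p 0.000142 for SHMT2, 0.00492 for MTHFD2 and 0.0329 for ASNS), and ASNS did so without miR-497-5p replicate 1 (0.0114).

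All 6 transport members changed, 4 lower and 2 higher. SLC7A5 (chr16:87830023-87869488, minus strand) stood at 604, 602 and 613 CPM in the control libraries and 184, 178 and 174 CPM with miR-497-5p, the largest fall among the members (-1.76 ± 0.04, adjusted p 8.9e-36). SLC3A2 (4F2hc), the heavy chain that carries SLC7A5 to the membrane, stood at 96.8, 90.8 and 95.1 CPM in the control libraries and 58.2, 59.6 and 55.5 CPM with miR-497-5p (-0.71 ± 0.04, adjusted p 4.45e-19). The fall of the heavy chain was smaller than that of the light chain, a difference between genes that was not tested. SLC7A1 (CAT1), which imports arginine and lysine, fell by 0.36 ± 0.05 (adjusted p 3.48e-09). SLC6A9 (GLYT1), which imports glycine, fell by 1.20 ± 0.17 (adjusted p 3.85e-08). In the other direction SLC38A2 (SNAT2), which imports small neutral amino acids with sodium, stood at 149, 151 and 140.2 CPM in the control libraries and 286, 293 and 300.2 CPM with miR-497-5p (1.00 ± 0.04, adjusted p 1.44e-26). VLDLR, a lipoprotein receptor that PERK and ATF4 raise under ER stress, stood at 2.66, 2.27 and 2.37 CPM in the control libraries and 4.81, 6.35 and 6.03 CPM with miR-497-5p (1.23 ± 0.15, adjusted p 1.95e-09). Each of the 6 genes had groups that did not overlap. The 3′ UTR of VLDLR held 3 7mer-m8 matches, 2 of them overlapping (chr9:2657654-2657660 and chr9:2657657-2657663), and 2 6mers. SLC7A5 and SLC7A1 fell with 1 and 2 7mer-m8 matches, and SLC7A5 also held 1 GCTGCTA (7mer-A1) and 3 6mers. The part of these sites in the changes was not tested.

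All 4 sensor genes changed at 72 h. ERN1, which codes for IRE1, the sensor that splices XBP1 mRNA, stood at 9.47, 7.26 and 9.66 CPM in the control libraries and 12.9, 12.3 and 14.6 CPM with miR-497-5p (0.59 ± 0.12, adjusted p 1.81e-05). ATF6, a membrane-bound factor that is cleaved in the Golgi, stood at 14.4, 12.3 and 13.4 CPM in the control libraries and 16.3, 15.8 and 17.5 CPM with miR-497-5p (0.30 ± 0.08, adjusted p 0.00114) and carries an 8mer and a 7mer-m8 site. EIF2AK3 stood at 5.16, 6.92 and 6.66 CPM in the control libraries and 8.85, 7.14 and 7.96 CPM with miR-497-5p (0.35 ± 0.11, adjusted p 0.00613). Its call was lost without control replicate 1 (adjusted p 0.0949), without miR-497-5p replicate 1 (0.0577) and when scaled by library totals (0.0586). XBP1, the factor downstream of IRE1, stood at 71.8, 71.1 and 74.3 CPM in the control libraries and 59.0, 55.4 and 59.1 CPM with miR-497-5p and fell (-0.32 ± 0.04, adjusted p 2.68e-08). All 4 had groups that did not overlap. Gene counts do not separate spliced from unspliced XBP1.

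All 9 chaperones and folding enzymes changed, 5 higher and 4 lower. HSPA5 (chr9:125234853-125241330, minus strand) stood at 184, 182 and 184 CPM in the control libraries and 227, 226 and 219.7 CPM with miR-497-5p (0.29 ± 0.03, adjusted p 9.74e-11). DNAJC3 (p58IPK), a co-chaperone that also inhibits PERK, stood at 55.2, 56.5 and 60.2 CPM in the control libraries and 84.7, 83.9 and 87.9 CPM with miR-497-5p (0.58 ± 0.04, adjusted p 3.07e-15). PDIA4, a protein disulfide isomerase, stood at 37.7, 41.0 and 40.2 CPM in the control libraries and 49.8, 49.5 and 51.2 CPM with miR-497-5p (0.34 ± 0.05, adjusted p 1.47e-08). These 3 were higher in every treated library than in any control library. DNAJB9 stood at 5.48, 5.19 and 4.54 CPM in the control libraries and 8.13, 8.62 and 8.98 CPM with miR-497-5p (0.76 ± 0.12, adjusted p 4.5e-07). HSP90B1 (GRP94), the ER member of the HSP90 family, rose by 0.13 ± 0.03 (adjusted p 0.000337), a call lost when scaled by library totals (0.493). PDIA6 (chr2:10783391-10837977, minus strand), an isomerase that also attenuates IRE1, went the other way and stood at 106, 112 and 106 CPM in the control libraries and 45.2, 44.6 and 48.6 CPM with miR-497-5p (-1.23 ± 0.04, adjusted p 8.85e-29). ATP6V1C2 on the other strand overlaps 25.2% of its exonic bases. SDF2L1, higher at 12 h, stood at 77.7, 83.1 and 80.6 CPM in the control libraries and 68.5, 55.6 and 58.1 CPM with miR-497-5p and fell (-0.41 ± 0.07, adjusted p 8.3e-05). CRELD2, a secreted ER stress gene, fell by 0.22 ± 0.06 (adjusted p 0.000608). CALR (calreticulin), a lectin chaperone, stood at 559, 544 and 576 CPM in the control libraries and 507, 496.8 and 503 CPM with miR-497-5p (-0.16 ± 0.03, adjusted p 1.62e-05), and its call was lost with an offset for exonic length (0.0953).

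Of the 3 ERAD genes 2 rose. SEL1L (chr14:81471549-81533861, minus strand), the adaptor of the HRD1 ubiquitin ligase, stood at 15.0, 14.2 and 14.1 CPM in the control libraries and 29.0, 29.7 and 29.6 CPM with miR-497-5p (1.03 ± 0.07, adjusted p 1.93e-17). HERPUD1 stood at 47.2, 46.2 and 42.1 CPM in the control libraries and 57.1, 58.8 and 59.5 CPM with miR-497-5p (0.37 ± 0.05, adjusted p 4.16e-09). Neither gene's groups overlapped. EDEM1, a lectin that hands glycoproteins to ERAD, was not called (0.03 ± 0.06, adjusted p 0.749).

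The effect of miR-497-5p at 72 h minus that at 12 h was called for 30 members, 14 higher and 16 lower (81.1%), beside 48.8% of all genes (22.5% higher and 26.2% lower). Without the libraries rich in HBB 14 were higher and 15 lower. SDF2L1 was the 1 member called higher at 12 h and lower at 72 h. HSPA5, HERPUD1, DNAJB9 and DDIT3 were called higher and SLC7A5 lower at both times.

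Other genes of the same pathways were listed by function, with earlier results of these data known. Of 94 listed genes 90 were tested, and at 72 h 37 rose and 35 fell (80%), with a median of 0.03, beside 57.5% of all genes called (27.9% higher and 29.6% lower). At 12 h 13 rose and 4 fell (18.9%), beside 12.5% of all genes (7.25% higher and 5.3% lower). Among 24 tested further ATF4 targets 8 rose and 11 fell at 72 h. STC2, a secreted stress protein, rose by 1.20 ± 0.05 and KLHL24 by 1.50 ± 0.12, while PYCR1, which makes proline, changed by -0.999 ± 0.04 and BBC3 (PUMA), a cell death gene, by -0.97 ± 0.07. Of 15 genes of eIF2 signalling 7 rose and 7 fell. The eIF2 kinase genes EIF2AK1 (HRI) and EIF2AK4 (GCN2) rose by 0.51 ± 0.04 and 0.43 ± 0.04, whereas EIF2B1, a subunit of the exchange factor eIF2B, changed by -0.46 ± 0.05 and GCN1, an activator of GCN2, by -0.54 ± 0.07.

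Of 27 further ER folding genes 14 rose and 10 fell at 72 h. ERO1A, the oxidase that supplies disulfide bonds, rose by 0.68 ± 0.04, and KDELR3, a receptor that returns proteins to the ER, by 0.57 ± 0.04. SEC61A1, the channel of the translocon, changed by -0.45 ± 0.04 and HYOU1, an ER chaperone of the HSP70 kind, by -0.61 ± 0.05. Of 15 further ERAD genes 6 rose and 5 fell, with UBE2J1 at 0.43 ± 0.04 and ERLEC1 at 0.51 ± 0.04 above control and the lectin OS9 at -0.51 ± 0.06 and SELENOS at -0.42 ± 0.07 below. Of 9 tested further transducers 2 rose and 2 fell. MBTPS1, the protease that cleaves ATF6, changed by 0.42 ± 0.05, and RTCB, the ligase that joins XBP1 exons, by 0.22 ± 0.07. CREB3L1 changed by -0.94 ± 0.04 and CREB3 by -0.39 ± 0.05; both are membrane-bound factors related to ATF6.

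In the control cells alone, most members differed between 12 h and 72 h. In RNA-seq 10 of 37 members rose and 23 fell from 12 h to 72 h (89.2% called), beside 74.4% of all genes tested (36.1% higher and 38.4% lower). In the ER arm 2 rose and 13 fell, with a median of -0.87 beside -0.00 for all genes. In the ATF4 arm 8 rose and 10 fell, with a median of -0.19. These values are relative to the median gene, which moved to -0.25 with scaling by library totals in place of TMM. All genes called then split into 4488 higher and 8400 lower instead of 6255 and 6650, and the members into 7 and 26. Without the libraries rich in HBB 10 members rose and 22 fell. This comparison shares its control libraries with those above. Groups did not overlap for 10 members that were higher and 24 that were lower, beside 37.7% and 39.8% of all genes.

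The largest falls among the members were those of the isomerases PDIA6 and PDIA4. PDIA6 went from 459.6, 476 and 489 CPM at 12 h to 106, 112 and 106 CPM at 72 h (-2.14 ± 0.04, adjusted p 2.13e-40). PDIA4 went from 155, 161 and 163 to 37.7, 41.0 and 40.2 CPM (-2.01 ± 0.04, adjusted p 8.96e-37), and HSPA5 from 488, 507 and 513 to 184, 182 and 184 CPM (-1.46 ± 0.03, adjusted p 2.82e-36). None of these ranges overlapped. SEL1L, HERPUD1 and EIF2AK3 fell as well (-1.37 ± 0.07, -1.36 ± 0.04 and -1.49 ± 0.10). For HSPA5, PDIA4 and SEL1L the miR-497-5p libraries at 72 h, although above their own controls, were still below every library of 12 h. The exceptions in the ER arm were CRELD2, which rose by 0.75 ± 0.06, and SDF2L1 (0.28 ± 0.07). The latter was not called with library totals (adjusted p 0.665) and was lower (-0.32) with an offset for exonic length.

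In the ATF4 arm ATF4 itself rose in control cells from 375, 395 and 393 to 763, 756 and 762 CPM (0.97 ± 0.03, adjusted p 1.62e-30). CEBPB rose most, from 68.9, 54.7 and 55.9 to 198, 199 and 204 CPM (1.74 ± 0.14, adjusted p 4.68e-06). PSAT1 fell from 73.0, 72.3 and 77.7 to 36.2, 36.2 and 36.8 CPM (-1.03 ± 0.06, adjusted p 4.37e-21), and PHGDH from 32.2, 32.2 and 34.5 to 17.7, 16.8 and 16.6 CPM (-0.95 ± 0.07, adjusted p 2.26e-17). Their values with miR-497-5p at 72 h, set against the same control libraries, are given above. For SLC7A5 the time course in control was small (0.18 ± 0.03, adjusted p 8.37e-06) and its sign was reversed with library totals (-0.07, adjusted p 0.0501). SLC38A2 went from 88.3, 92.8 and 92.2 to 149, 151 and 140.2 CPM (0.69 ± 0.04, adjusted p 9.38e-21).

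**Figure D3:**
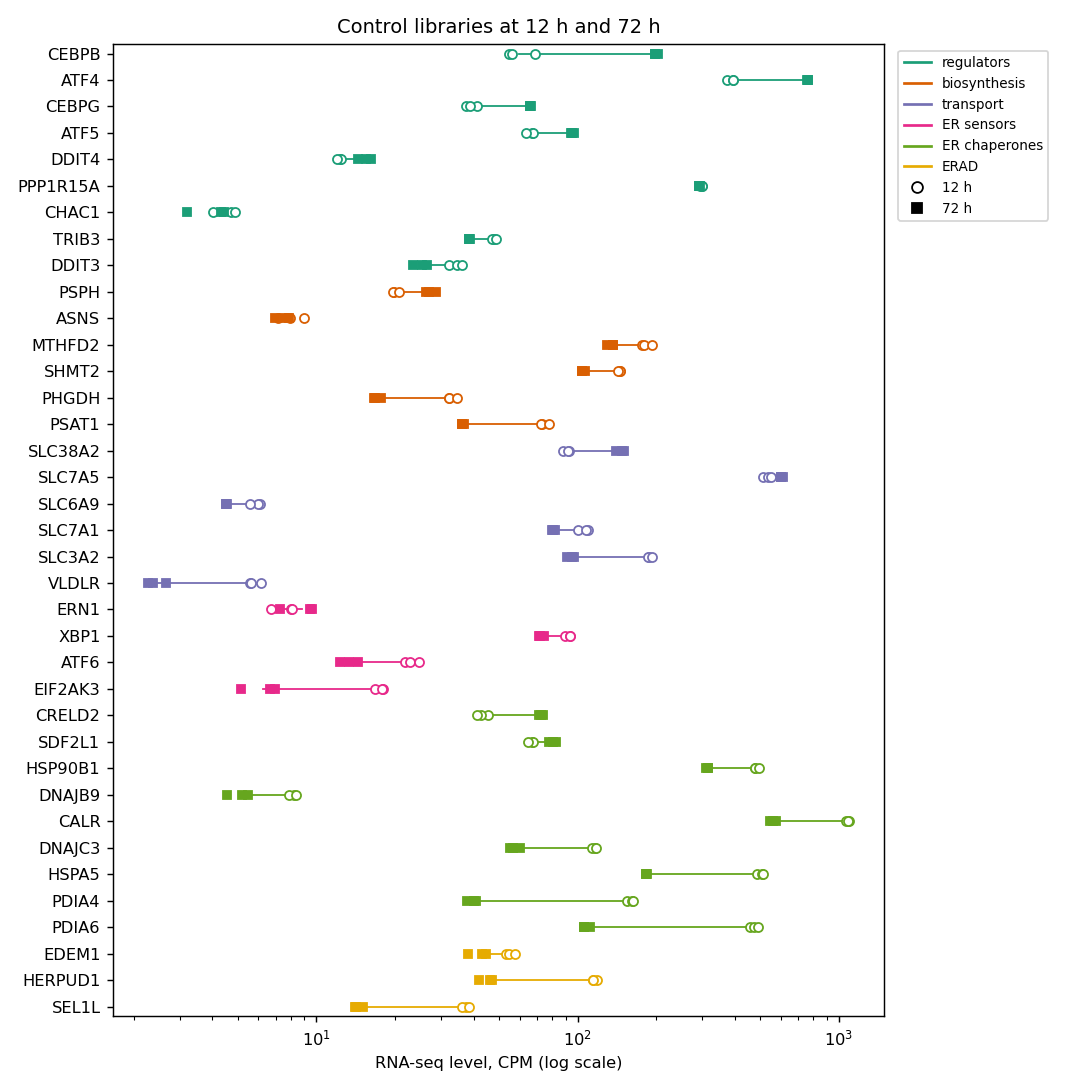
RNA-seq level in CPM (log axis) of the 37 members in the 3 control libraries at 12 h (open circles) and the 3 at 72 h (filled squares), with a line between the means. Most genes of the ER arm lie to the left at 72 h, with CRELD2 and SDF2L1 to the right, while CEBPB and ATF4 lie to the right.

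The pull-down with miR-497-5p at 12 h differed from the control pull-down for 3 of 37 members (8.11%), beside 0.595% of 17477 genes tested (0.326% higher and 0.269% lower). The 3 were CHAC1, MTHFD2 and HSPA5, all higher. None was lower by edgeR's test, with 1 lower at an unadjusted p under 0.05 and 1 lower in DESeq2, which called 4 higher. Of the 90 further pathway genes 0 were called, with 2 higher and 1 lower at an unadjusted p under 0.05 and 0 higher and 0 lower in DESeq2. Groups did not overlap for 9 members that were higher and 2 that were lower, beside 8.11% and 8.33% of all genes. All genes called split into 57 higher and 47 lower, into 78 and 17 with library totals and into 100 and 214 in DESeq2. SLC7A5 stood at 882, 859.5 and 886 CPM in the control libraries and 748, 688 and 725 CPM with miR-497-5p, apart but not called (-0.28 ± 0.07, adjusted p 0.0959), whereas DESeq2 called it lower (adjusted p 0.00143).

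CHAC1 (chr15:40952962-40956519, plus strand) stood at 7.44, 6.77 and 6.82 CPM in the control libraries and 24.6, 16.3 and 20.4 CPM with miR-497-5p in the 12 h pull-down. Every treated library was above every control library, with a log2 fold change of 1.54 ± 0.29, adjusted p 0.013. In RNA-seq at the same time it stood at 4.7, 4.86 and 4.03 CPM in the control libraries and 4.6, 4.74 and 3.59 CPM with miR-497-5p, with overlapping groups (-0.07 ± 0.15, adjusted p 0.828). The effect in the pull-down exceeded that in RNA-seq by 1.63 ± 0.26, adjusted p 0.00562. That standard error is below the 0.29 of the pull-down effect alone, as the assays share their spread in this fit. The call in the pull-down was lost without control replicate 2 (adjusted p 0.0505). Its 3′ UTR of 738 bases holds the pair of overlapping sites shown above. At 72 h the pull-down stood at 4.24, 9.09 and 12.2 CPM in the control libraries and 8.83, 12.3 and 11.8 CPM with miR-497-5p, with overlapping groups (0.35 ± 0.30, adjusted p 0.464).

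MTHFD2 (chr2:74198562-74217565, plus strand), the mitochondrial dehydrogenase of the folate cycle, stood at 85.2, 85.0 and 81.8 CPM in the control libraries and 135, 117 and 122 CPM with miR-497-5p in the 12 h pull-down (0.57 ± 0.11, adjusted p 0.013). At 72 h the pull-down stood at 57.7, 56.0 and 55.1 CPM in the control libraries and 91.2, 88.6 and 112 CPM with miR-497-5p (0.79 ± 0.11, adjusted p 7.88e-06). At both times the groups were apart, while RNA-seq stood at 176, 179.7 and 193 CPM in the control libraries and 179.7, 189.5 and 185 CPM with miR-497-5p at 12 h and 137, 136 and 129 CPM in the control libraries and 132, 134 and 131 CPM with miR-497-5p at 72 h, with overlap. The pull-down effect exceeded the RNA-seq effect by 0.58 ± 0.10, adjusted p 0.0107 at 12 h and by 0.79 ± 0.10, adjusted p 2.88e-05 at 72 h. At 12 h that difference was lost without RNA-seq control replicate 3 (adjusted p 0.0543), RNA-seq miR-497-5p replicate 1 (0.0563) or RNA-seq miR-497-5p replicate 3 (0.0533). No 7mer-m8 or 8mer was found in its 3′ UTR of 3323 bases. Other annotated genes on the opposite strand overlap 33.2% of its exonic bases, and 7 pseudogenes are named after it.

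HSPA5 stood at 254, 258 and 234 CPM in the control libraries and 334, 313 and 325 CPM with miR-497-5p in the 12 h pull-down, without overlap (0.38 ± 0.09, adjusted p 0.0494). This call was close to the threshold and was lost under 8 of 11 alternatives, among them the omission of control replicate 1 (adjusted p 0.131), control replicate 2 (0.0883), or miR-497-5p replicate 1 (0.0576), 2 (0.0664) or 3 (0.119). At 72 h the pull-down stood at 63.1, 71.0 and 68.2 CPM in the control libraries and 67.8, 72.5 and 72.6 CPM with miR-497-5p and was not called (0.07 ± 0.09, adjusted p 0.66). HSPA5 holds a 6mer in its 3′ UTR and 7mer-m8 matches in its coding sequence.

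**Figure D4:**
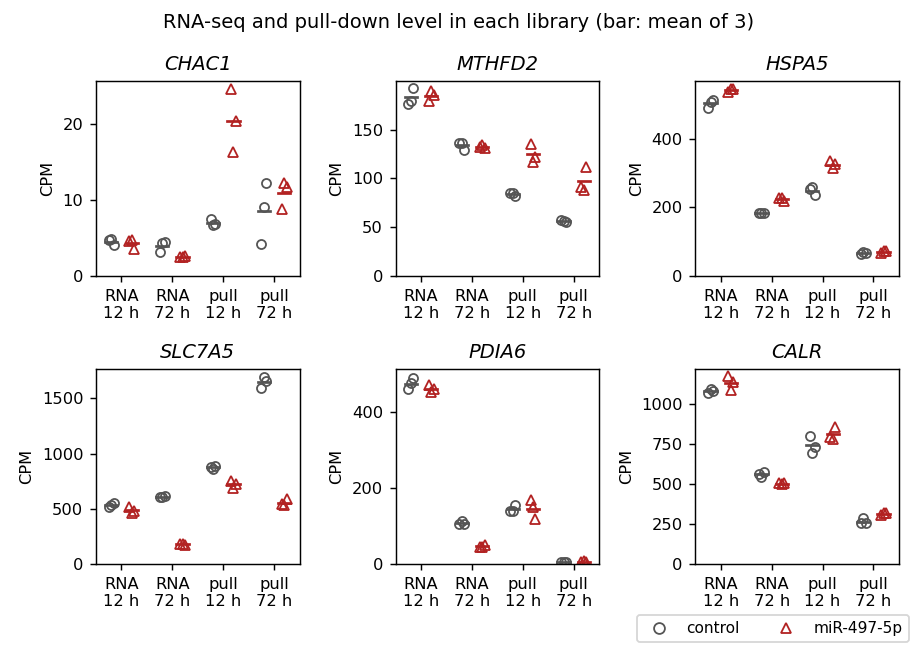
Level in CPM (linear axes from 0) of 6 members in every RNA-seq (RNA) and pull-down (pull) library at 12 h and 72 h, with control as circles, miR-497-5p as triangles and the mean of 3 as a bar. CHAC1 and MTHFD2 are apart in the 12 h pull-down but overlap in RNA-seq at 12 h, and PDIA6 is near 0 in the pull-down at 72 h.

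At 72 h the pull-down called 10 members, 6 higher and 4 lower (27%), beside 22.7% of all genes, 10.2% higher and 12.6% lower. The number higher was 10 in DESeq2, 9 with the length offset and 4 without the filter; it was 3 without control replicate 1 or miR-497-5p replicate 1 and 4 without control replicate 3. Groups did not overlap for 8 members that were higher and 10 that were lower, beside 17.1% and 18.3% of all genes. ATF4 stood at 1044, 1086 and 1109 CPM in the control libraries and 1508, 1449 and 1497 CPM with miR-497-5p (0.46 ± 0.08, adjusted p 0.000148), beside 0.46 ± 0.03 in RNA-seq. The 4 lower members were also lower in RNA-seq. SLC7A5 stood at 1590.0, 1691 and 1656 CPM in the control libraries and 542, 533 and 585 CPM with miR-497-5p (-1.57 ± 0.07, adjusted p 2.51e-13), and SLC3A2 at 49.5, 48.0 and 65.6 CPM in the control libraries and 34.5, 31.3 and 35.0 CPM with miR-497-5p (-0.69 ± 0.12, adjusted p 0.000112). PSAT1 stood at 11.9, 20.6 and 13.3 CPM in the control libraries and 7.24, 8.1 and 5.83 CPM with miR-497-5p (-1.13 ± 0.23, adjusted p 0.000636), and PHGDH at 35.7, 32.9 and 31.7 CPM in the control libraries and 17.8, 23.4 and 15.2 CPM with miR-497-5p (-0.85 ± 0.18, adjusted p 0.00117). Treated and control libraries were apart in all 5 genes. PSAT1, with its 8mer, was thus lower in the pull-down as well as in RNA-seq.

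In the ER arm 3 of 16 rose in the 72 h pull-down and none fell, with 1 lower at an unadjusted p under 0.05 and 0 lower in DESeq2. PDIA4 stood at 25.6, 24.6 and 17.2 CPM in the control libraries and 37.2, 42.8 and 28.3 CPM with miR-497-5p (0.67 ± 0.16, adjusted p 0.00257). DNAJC3 stood at 34.1, 42.6 and 29.6 CPM in the control libraries and 57.0, 42.5 and 48.4 CPM with miR-497-5p, with 1 treated library just below the highest control (0.48 ± 0.14, adjusted p 0.0162). Its call was lost without control replicate 1 (adjusted p 0.0655) or 3 (0.121) or miR-497-5p replicate 1 (0.124). CALR stood at 253, 284 and 253 CPM in the control libraries and 307, 316 and 321 CPM with miR-497-5p, without overlap (0.26 ± 0.08, adjusted p 0.0296). SHMT2, the serine hydroxymethyltransferase of mitochondria, stood at 158, 153 and 161 CPM in the control libraries and 194, 187 and 194 CPM with miR-497-5p, without overlap (0.28 ± 0.10, adjusted p 0.0446). Omission of 1 of the 6 libraries ended the call of CALR in 5 cases (adjusted p 0.0595 to 0.14; without control replicate 2 it stayed called) and that of SHMT2 in all 6 (0.0774 to 0.153).

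The difference between the assays at 72 h was called for 8 members, 5 with a higher effect in the pull-down and 3 with a lower one (21.6%), beside 14.5% of all genes (7.46% higher and 7.01% lower). These fits share the spread between assays, so their errors and adjusted p may understate that of the pull-down. With library totals 8 were higher and 1 lower, and all genes split into 2085 higher and 747 lower in place of 1260 and 1185. MTHFD2, described above, and SHMT2 (0.33 ± 0.07, adjusted p 0.00231) were called higher in the pull-down and not called in RNA-seq. CALR was called higher in the pull-down and lower in RNA-seq, a difference of 0.39 ± 0.06, adjusted p 0.000317. PDIA6 had fallen in RNA-seq, while in the pull-down it stood at 4.04, 5.71 and 4.89 CPM in the control libraries and 5.18, 7.96 and 3.85 CPM with miR-497-5p, overlapping and low (1.31 ± 0.24, adjusted p 0.00105 for the difference). SLC7A5 had a slightly smaller fall in the pull-down (0.17 ± 0.05, adjusted p 0.0336). In the other direction pull-down SLC38A2 stood at 29.2, 32.4 and 33.8 CPM in the control libraries and 47.1, 36.7 and 39.8 CPM with miR-497-5p, a smaller difference than in RNA-seq (-0.63 ± 0.11, adjusted p 0.000596). SEL1L stood at 6.34, 7.53 and 5.73 CPM in the control libraries and 8.78, 8.51 and 5.94 CPM with miR-497-5p (-0.81 ± 0.24, adjusted p 0.0302) and HSPA5 had -0.24 ± 0.07, adjusted p 0.0417. The differences for SLC7A5, HSPA5 and SEL1L were lost when 1 of the 12 libraries was left out in 7, 9 and 8 cases, with adjusted p up to 0.11, 0.116 and 0.0875, and that of HSPA5 was -0.10 with library totals (0.418). At 12 h the assays differed for 2 members, CHAC1 and MTHFD2 (5.41%), beside 1.34% of all genes (0.984% higher and 0.357% lower). All genes called at 12 h split into 168 higher and 61 lower, into 367 and 33 with library totals and into 392 and 582 in DESeq2. Without the RNA-seq libraries rich in HBB neither member was called, with CHAC1 at 1.56 (adjusted p 0.513) and MTHFD2 at 0.69 (adjusted p 0.412), and 5 genes were called in all.

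**Figure D5:**
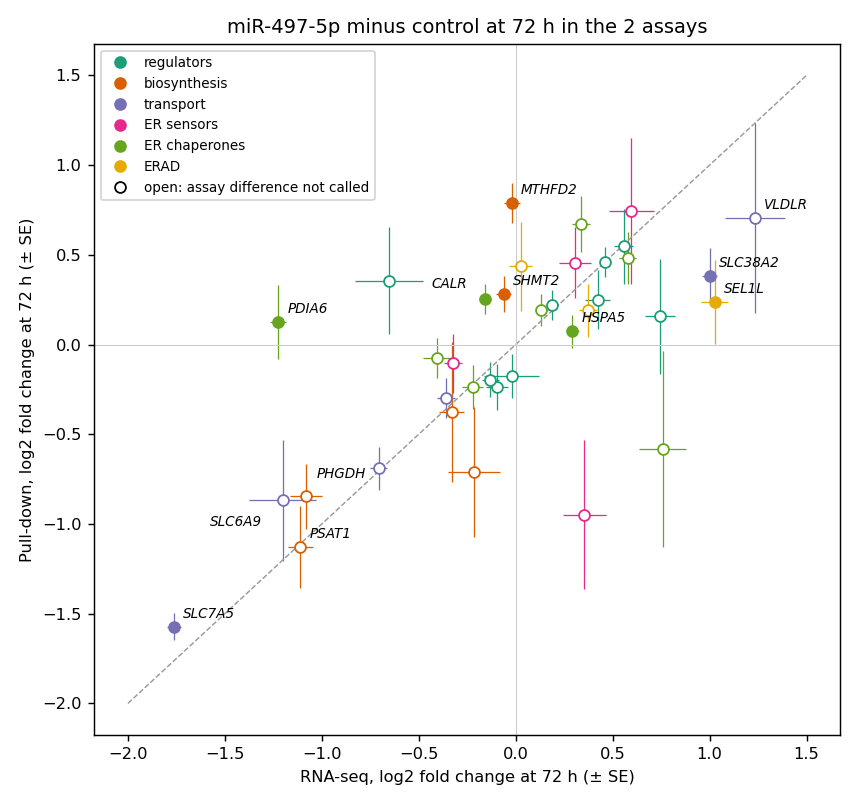
Log2 fold change at 72 h in RNA-seq (horizontal) and in the pull-down (vertical) for the 37 members, each with its standard error; the dashed line marks equal effects and filled points mark the 8 members whose difference between assays was called. SLC7A5, PSAT1, PHGDH and SLC3A2 lie near the line, and MTHFD2 and PDIA6 lie above it.

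In control cells the members also differed between the assays, which differ in both the extract and the capture, so that these cannot be told apart. Comparing control pull-down with control RNA-seq at 12 h, 9 members were higher in the pull-down and 18 lower (73% called), beside 46.6% of all genes, 19.7% higher and 26.9% lower. In the ER arm 2 were higher and 12 lower, with a median of -0.71 beside -0.08 for all genes. PDIA6 (-1.52 ± 0.10), EIF2AK3 (-1.30 ± 0.17) and EDEM1 (-1.12 ± 0.11) were the lowest, and CRELD2 (1.11 ± 0.11) and SDF2L1 (0.93 ± 0.10) were the 2 higher. Among the regulators 6 of 9 were higher, CEBPB (1.56 ± 0.16), ATF5 (1.11 ± 0.09) and CHAC1 (0.82 ± 0.18) most. With library totals the median of all genes moved to -0.25, all genes called split into 2719 higher and 5687 lower in place of 3371 and 4587, and the call of ATF4 (0.29 ± 0.08, adjusted p 0.00414) was lost (adjusted p 0.129). All genes split evenly in DESeq2 (4105 higher and 4130 lower, median 0.02) and with the length offset (3739 and 3686, median -0.00), where 9 members were higher and 16 lower in both. Without the libraries rich in HBB 8 members were higher and 15 lower, and ATF4 was not called (adjusted p 0.254).

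Members with a 7mer-m8 or 8mer in the 3′ UTR did not move in 1 direction at 72 h. Of these 11, 6 rose and 5 fell in RNA-seq at 72 h, and their median was 0.19 beside -0.05 over 3651 tested genes with such a site. Of the 19 members without any 6mer in the 3′ UTR 7 rose and 7 fell, with a median of -0.02 beside 0.00 over 7331 genes. Over all genes tested 27.9% rose and 29.6% fell at 72 h. At 12 h 0 of the 11 rose and 1 fell, while 6 of the 19 rose and 0 fell. Over all genes 7.25% rose and 5.3% fell at that time. The medians at 12 h were -0.08 and 0.08 for these members and -0.05 and 0.03 for all genes with and without a site. A difference between members with and without a site was not tested. In the 12 h pull-down CHAC1 was the 1 member with a site that was called, beside 0.326% of all genes higher and 0.269% lower.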

How the data were processed

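The 24 RNA libraries came from H2052 cells at 12 h and 72 h, 3 in each of 8 groups. The authors deposited raw counts of reads per gene, 1 file a library. Per the submitters' processing notes, Trimmomatic 0.36, STAR 2.5.2b, featureCounts of Subread 1.5.2 and GRCh38 were used; whether counting used the strand is not stated there. Symbols from GENCODE 44 named 56410 of 57500 identifiers.

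Counts were tested with edgeR 4.0.16 (R 4.3.3): TMM, filterByExpr, robust quasi-likelihood test, Benjamini-Hochberg over all genes tested. The 12 RNA-seq and 12 pull-down libraries were fitted apart, and both assays together for each time, with a spread shared between the assays. The code was checked on simulated counts. Alternatives were library totals, no filter, a replicate block, an offset for exonic length, DESeq2 1.42.0 and leaving out each library. Replicate numbers were not shown to pair the samples.

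Members and lists were chosen with earlier results of these data known. Library values are given for ATF4, DDIT3, XBP1, HSPA5, in each role the up to 4 members with the smallest adjusted p in RNA-seq at 72 h and the up to 2 at 12 h among those called, and every member called in the pull-down or differing between assays. From each further list up to 2 genes in each direction with the smallest adjusted p at 72 h are named. CEBPB, ASNS and members given by their fold change alone were added after their values were seen.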

Additional observations from a re-analysis of the deposited data

Results flagged for a closer look

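For 30 of the 37 members the effect of miR-497-5p differed between 72 h and 12 h by edgeR's test of that difference, with all values as log2 fold change at 72 h minus log2 fold change at 12 h. In the ATF4 arm the regulators PPP1R15A (0.15), ATF4 (0.38), DDIT4 (0.57) and CEBPG (0.57) had a higher effect at 72 h. CEBPB (-0.67), CHAC1 (-0.58) and TRIB3 (-0.39) had a lower one. Among the enzymes it was lower for PHGDH (-1.16), PSAT1 (-1.02), PSPH (-0.40) and SHMT2 (-0.16). Among the transporters it was lower for SLC7A5 (-1.63), SLC6A9 (-1.12), SLC3A2 (-0.79) and SLC7A1 (-0.28), and higher for SLC38A2 (1.06) and the receptor VLDLR (1.53).

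In the ER arm the sensors EIF2AK3 (0.43), ATF6 (0.46) and ERN1 (0.52) had a higher effect at 72 h, and XBP1 (-0.40) a lower one. Among the folding genes the effect was higher for HSPA5 (0.19), PDIA4 (0.28), DNAJB9 (0.40) and DNAJC3 (0.61), and lower for PDIA6 (-1.18), SDF2L1 (-0.69), CRELD2 (-0.33) and CALR (-0.22). SEL1L, of ER-associated degradation, had a value of 1.09. Of these 30 calls 22 held under every alternative run, and those of CHAC1, DNAJB9 and CEBPB were lost in 12, 10 and 7 of 18.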

How the results depend on the processing

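Counts of members called kept within 1.5 times of the reported ones except in the comparisons with few calls. In the 12 h pull-down, DESeq2 called 5 members in place of 3, and all genes called went from 104 to 217 without the filter and 314 in DESeq2. For the difference between assays at 12 h, 5 members were called with library totals and 4 in DESeq2 in place of 2. All genes called there went from 229 to 400 with library totals, 573 without the filter, 112 with the length offset and 974 in DESeq2. At 72 h that difference was called for 5 members without the filter in place of 8. In RNA-seq at 12 h, omission of the 3 libraries rich in HBB, an alternative chosen after seeing the data, gave 5 members in place of 8 and 1348 genes in place of 2175. The same omission, which leaves 1 RNA-seq control library, gave 0 members and 5 genes for the difference between assays at 12 h and 4456 genes in place of 7958 for control pull-down against RNA-seq. The cause of these shifts was not tested.

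With 1 library left out in turn, members called ranged from 6 to 10 in RNA-seq at 12 h (all genes 1433 to 2212) and from 30 to 31 at 72 h (9179 to 9391). For the change of effect between times they ranged from 26 to 32 (7948 to 8390), and for control over time from 33 to 34 (12380 to 12559). In the pull-down the ranges were 1 to 4 at 12 h (64 to 268) and 7 to 10 at 72 h (3232 to 3427). For the difference between assays they were 1 to 3 at 12 h (42 to 683) and 5 to 10 at 72 h (1747 to 2853), and for control pull-down against RNA-seq 26 to 28 (6883 to 7747). The highest counts in the 12 h pull-down, 4 members and 268 genes, came without control replicate 3. In that library squamous markers summed to 757 CPM, beside 154 and 235 CPM in replicates 1 and 2. Its mesothelial markers summed to 4437 CPM, beside 6403 and 6294 CPM. The part of this library's difference in the calls was not tested.

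Over single members, 4291 values under alternatives kept direction and side of the threshold, 75 passed it, 137 fell short of it and 3 changed sign. The changed signs were SLC7A5 in control over time with library totals (-0.067), SDF2L1 there with the length offset (-0.32), and SLC7A1 in control pull-down against RNA-seq with the length offset (0.004). Calls that held under every alternative were 4 of 8 in RNA-seq at 12 h, 27 of 31 at 72 h, 29 of 33 for control over time, 1 of 3 (MTHFD2) in the 12 h pull-down and 7 of 10 in the 72 h pull-down.

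Same-numbered replicates were not shown to be paired, since their deviations correlated at 0.118, 0.084 and 0.354 in RNA-seq at 12 h and below that elsewhere in the mimic comparisons. With a replicate block, 8 members were called in RNA-seq at 12 h, 31 at 72 h, 30 for the change of effect and 33 for control over time. The block gave 2 and 9 in the pull-down at 12 h and 72 h, 2 and 6 for the differences between assays, and 27 for control pull-down against RNA-seq. The shallowest library, of the 72 h pull-down, held 8262425 counts; without it 9 members and 3427 genes were called, within the range above, and a part of depth in the calls was not tested further.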
